A study of Mus musculus with 4 samples.

Results

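The genes described here are the inflammatory chemokines and their receptors, measured by bulk RNA-seq in CD45+ leukocytes sorted from the mouse dura mater, the outermost layer of the meninges. They are all genes of the deposited table whose symbol is built from a chemokine or chemokine receptor stem and a number (Ccl, Cxcl, Xcl, Cx3cl, Ccr, Cxcr, Xcr, Cx3cr and Ackr), less 10 genes of the axes that guide lymphocytes and plasma cells between organs, such as Cxcr4 and its ligand. This left 51 of the 55401 genes, of which 34 are ligand genes and 17 are receptor genes. WT C57BL/6J male mice had received a single dose of 2 μl of adeno-associated virus of serotype 9 (AAV9) into the cisterna magna, a pocket of CSF below the cerebellum, at 4 wk of age. AAV-mVEGF-C, written AAV-VEGF-C in the sample labels, delivers the full-length mouse form of the lymphangiogenic growth factor VEGF-C. AAV-CTRL (AAV-Control in the labels) delivers mouse VEGFR3 (4–7)-Ig, a secreted fusion of VEGFR-3 ectodomains that does not bind VEGF-C. All mice thus carried AAV9, and there were no uninjected animals among these libraries. Each group had 2 libraries, each of them from the pooled dura of 10 to 12 mice, and neither the promoter of the vectors nor the age at harvest of these cells is given in the sources used here. The comparison asks whether VEGF-C delivered into the CSF was accompanied by a change in the inflammatory chemokine system of dural leukocytes.

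Chemokines are small secreted proteins that direct the migration of leukocytes. They act on G protein–coupled receptors on the leukocyte surface, and in the CC and CXC families 1 ligand often binds several receptors while 1 receptor often binds several ligands. Inflammatory chemokines are induced at sites of injury and infection, many of them through NF-κB, and recruit monocytes through CCR2, neutrophils through CXCR2, and effector T cells through CXCR3 or CXCR6. Atypical receptors bind chemokines without G protein signaling and remove or transport them. In the dura, macrophages, monocytes, neutrophils, dendritic cells, mast cells, and T cells are all known sources or targets of these signals.

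The ligands of CXCR2 include *Cxcl2*, the highest per unit of transcript length of the chemokine genes kept here. They also include *Cxcl3*, the ligand with the lowest p among those tested. The promoters of these neutrophil attractants are therefore shown with that of *Cxcl1*, which lies between them. The genes lie together on chromosome 5, all on the plus strand (GENCODE M21 on GRCm38, the mm10 build of the submitters' processing notes): *Cxcl3* at 90786103 to 90789600, *Cxcl1* at 90891241 to 90893115, and *Cxcl2* at 90903871 to 90905938. Each sequence is the RefSeq promoter window of GRCm38.p6, 300 bases from 250 before the transcription start to 50 after it, at chr5:90903649-90903948 for *Cxcl2*, chr5:90890995-90891294 for *Cxcl1*, and chr5:90785851-90786150 for *Cxcl3*. Capitals mark each match, on either strand, to a κB-like pattern, GGG, any 2 bases, and then TTTCC.
Cxcl2: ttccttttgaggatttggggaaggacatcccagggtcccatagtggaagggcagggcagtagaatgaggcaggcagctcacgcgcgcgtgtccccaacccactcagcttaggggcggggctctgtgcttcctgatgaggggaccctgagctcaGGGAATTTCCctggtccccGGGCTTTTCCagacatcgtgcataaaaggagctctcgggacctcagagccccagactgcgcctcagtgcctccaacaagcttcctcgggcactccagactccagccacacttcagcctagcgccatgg
Cxcl1: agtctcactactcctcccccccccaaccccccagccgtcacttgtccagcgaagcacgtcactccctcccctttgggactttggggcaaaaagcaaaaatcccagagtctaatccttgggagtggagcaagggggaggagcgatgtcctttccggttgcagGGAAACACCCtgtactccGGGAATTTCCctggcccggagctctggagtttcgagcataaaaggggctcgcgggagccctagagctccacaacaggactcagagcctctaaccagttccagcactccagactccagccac
Cxcl3: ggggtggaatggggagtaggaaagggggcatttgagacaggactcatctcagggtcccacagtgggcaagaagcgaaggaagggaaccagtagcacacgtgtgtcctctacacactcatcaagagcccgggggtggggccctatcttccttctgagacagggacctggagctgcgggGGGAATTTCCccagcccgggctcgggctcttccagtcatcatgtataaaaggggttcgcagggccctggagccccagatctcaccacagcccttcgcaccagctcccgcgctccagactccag
*Cxcl2* and *Cxcl1* held 2 matches each and *Cxcl3* held 1. RefSeq promoters were found for 23 of the 34 ligands (28 promoters) and 16 of the 17 receptors (17 promoters). A ligand or receptor counts below if any of its promoters matched, whereas the shares of all promoters are per promoter. The κB-like pattern was found in 5 of those 23 ligands (the 3 shown, *Ccl9*, and *Ccl20*) and in 1 receptor, *Ccr3*, against 535 of all 32851 promoters of this length (1.63%). The AP-1 pattern TGANTCA, where N is any base and either strand counts, was found in 5 ligands and 2 receptors, against 7.81% of all promoters. Neither pattern contains the other, and the promoters of *Ccl9* and *Ccr3* held both. A match describes the letters of the window and does not show that a factor binds there.

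The 4 libraries held 32520709 to 46409700 reads assigned to genes, and 20990 to 37512 genes had at least 1 read. AAV-CTRL 1 had the most reads and the fewest detected genes. All 5 leukocyte genes checked, among them *Ptprc*, the gene of CD45 itself, were present in every library, at a summed 3194 and 2853 CPM (counts per 1000000 reads, scaled with edgeR's TMM factors) in AAV-CTRL and 2915 and 3209 CPM in AAV-mVEGF-C. The 51 chemokine genes took up 0.191% and 0.194% of all reads in AAV-CTRL, and 0.192% and 0.207% in AAV-mVEGF-C. Reads were found for 41 and 45 of them in AAV-CTRL and for 47 in each AAV-mVEGF-C library. Over the tested chemokine genes, the AAV-CTRL libraries were the least alike of all 6 pairs of libraries (r = 0.966 across genes on a log2 scale, median difference 0.53), and the AAV-mVEGF-C libraries differed by a median of 0.25 (r = 0.987). These r values are across genes, which are not independent replicates. Throughout, values are given for AAV-CTRL 1 and 2 and then for AAV-mVEGF-C 1 and 2.

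No inflammatory chemokine or receptor gene passed the test between the groups. In edgeR's quasi-likelihood test, 0 of the 40 chemokine genes tested had an adjusted p under 0.05, and the adjusted p was 0.999 for every one of them. Across all genes it was also 0 of 19806 (0%), and with the experiment number of the labels as a replicate block it was 11, none of them a chemokine gene. At an unadjusted p under 0.05 there were 0 chemokine genes, against 523 of all tested genes (2.64%). DESeq2 called 0 chemokine genes after adjustment, against 72 of 19038 genes overall (0.378%). Before adjustment it called 1 of the 40, *Ccr8* (adjusted p = 1 from DESeq2), against 658 of all 19806 tested genes. limma-voom also gave 0 after adjustment. Before adjustment it called *Ccr8* alone, against 681 of the 19806 genes. A p that misses the threshold does not show that levels were equal, so the 95% interval of each fold is given where it helps to show which sizes of difference these libraries could not tell from none. The p-values rest on the spread between 2 pools per group.

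The log2 fold changes of the chemokine genes centered near 0. The median was 0.06 for the 25 tested ligands and 0.13 for the 15 tested receptors, against 0.0034 for all tested genes, and 31 of the 40 lay within 0.5 on either side of 0, against 72% of all genes. By sign, 14 ligands were higher and 11 lower after AAV-mVEGF-C, and 11 receptors were higher and 4 lower. Both AAV-mVEGF-C libraries lay above both AAV-CTRL libraries for 8 of the 40 genes, against 16.7% of all tested genes, and below both for 4 of the 40, against 15.2%. Summed over all 34 ligands, the level was 1115 and 940 CPM in the controls and 998 and 1175 CPM after AAV-mVEGF-C, or 1027 ± 124 and 1086 ± 125 CPM (SD, n = 2 pools each; p = 0.667 in a two-sided exact permutation test). Summed over the 17 receptors it was 862 and 935 CPM against 863 and 952 CPM, or 898 ± 51.6 and 908 ± 62.7 CPM (n = 2 pools each; p = 0.667 in a two-sided exact permutation test). With 2 pools in each group this test cannot go below 0.333. The ranges of the groups overlapped for both sums, and on the TPM scale both sums were at or below those of the controls at the mean (ratio 0.947 for ligands and 0.971 for receptors; exact permutation p = 1 for each).

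**Figure D1:**
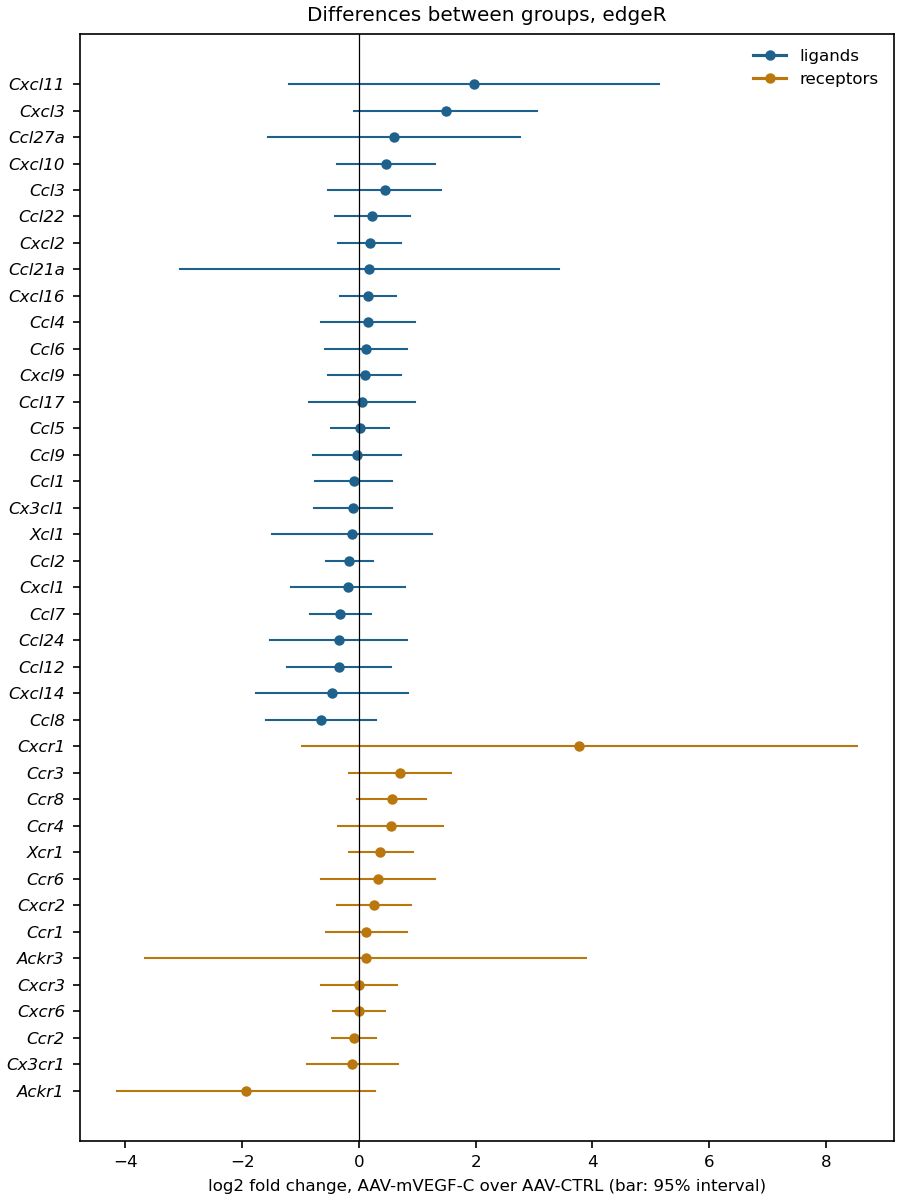
Log2 fold change of 39 of the tested chemokine genes, AAV-mVEGF-C over AAV-CTRL, from edgeR (points) with its 95% interval (bars); ligands are blue and receptors are orange. Each interval reaches across 0, and those of *Cxcr1*, *Cxcl11*, *Ackr3*, and *Ccl21a* are the widest.

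Levels of different genes were compared in TPM, the transcript share of a gene after its reads are divided by its length. *Cxcl2* was the highest chemokine gene, at a mean of 167 TPM over the 4 libraries (154 to 195). It was followed by *Ccl9* (121 TPM, 98.7 to 135), *Ccl6* (120 TPM, 90.3 to 148), *Ccl5* (105 TPM, 86.0 to 127), and *Ccl2* (96.0 TPM, 76.1 to 116). The lowest library of *Cxcl2* lay above the highest of *Ccl9*, whereas the ranges of the following neighbors overlapped one another, so their order is not settled by these libraries. The highest of the receptors kept here was *Ccr2*, at 82.3 TPM (75.4 to 91.0), followed by *Cxcr6* at 38.1 TPM (33.3 to 47.0), and these ranges did not overlap. At the other end, *Cxcl3* was at a mean of 0.765 TPM although it lies in the same cluster as *Cxcl2*, and *Ccl11* was at 0.0283 TPM although it lies between *Ccl7* and *Ccl12*.

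**Figure D2:**
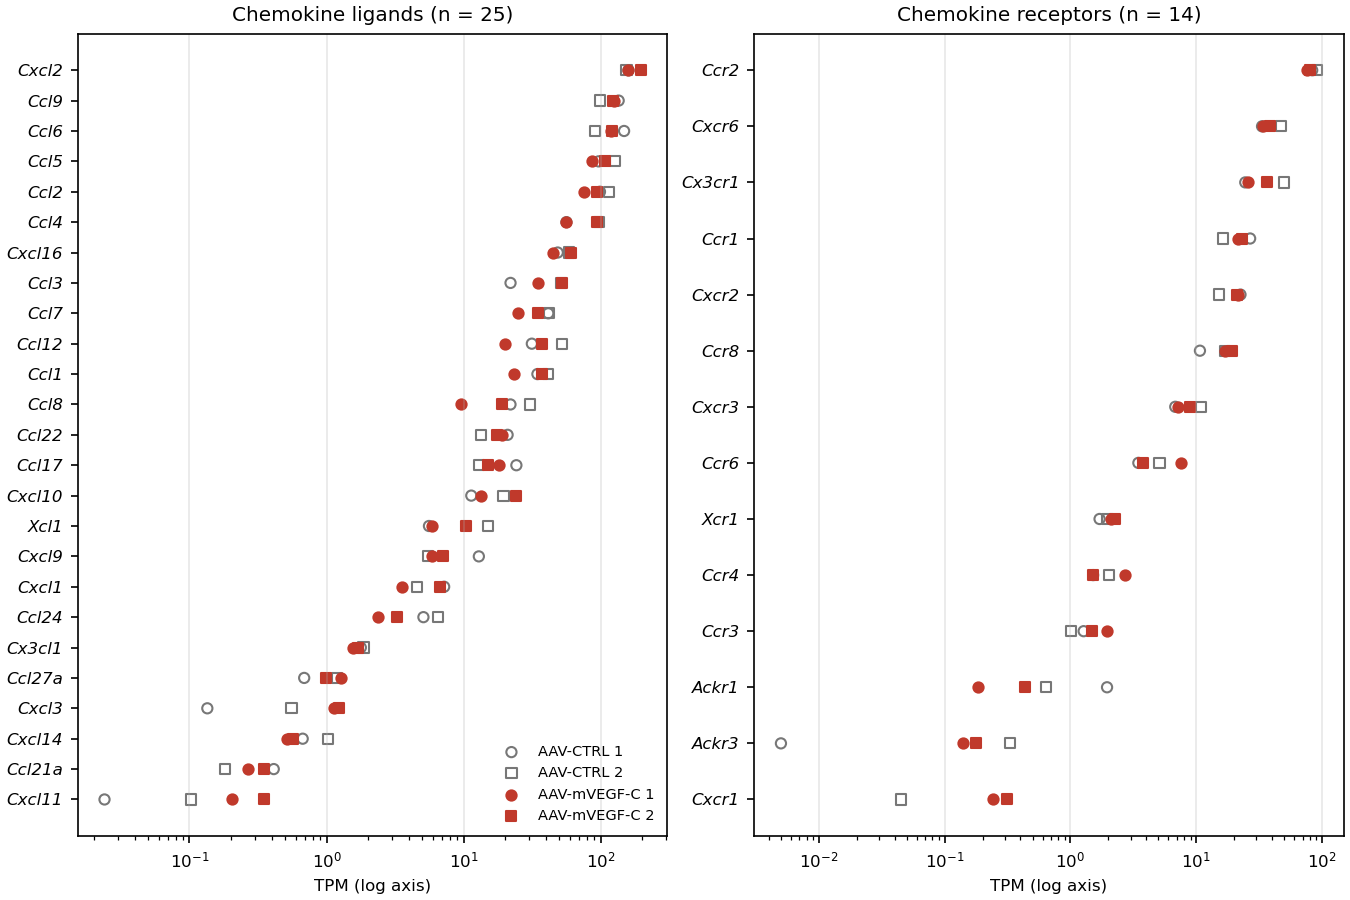
TPM of the 25 tested chemokine ligands (left) and of 14 tested receptors (right) in each library, on log axes; open gray symbols are AAV-CTRL and filled red symbols are AAV-mVEGF-C, with circles for replicate 1 and squares for replicate 2, and genes are ordered by mean level. The libraries of a gene lie close together at the top, from *Cxcl2* at 154 to 195 TPM downward, and spread apart for genes near or under 1 TPM; *Cxcr1* has no point for AAV-CTRL 1, where its value was 0.

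The ligands of CCR2 attract monocytes, and all 4 of them had a lower mean after AAV-mVEGF-C without passing the test. They lie in 1 cluster on chromosome 11, plus strand, from *Ccl2* (82035571 to 82037453) over *Ccl7* (82045712 to 82047525) and *Ccl12* (82101845 to 82103400) to *Ccl8* (82115185 to 82116799). *Ccl2*, the main monocyte attractant of the group, was at 81.6 and 90.2 CPM in the controls and 69.7 and 83.5 CPM after AAV-mVEGF-C (fitted log2 fold change −0.17 with a standard error, SE, of 0.17). The higher AAV-mVEGF-C library lay within the range of the controls. *Ccl7*, which also binds CCR1 and CCR3, was at 33.5 and 31.8 CPM against 22.0 and 30.3 CPM (−0.32, SE 0.21). Both of its AAV-mVEGF-C libraries lay below both controls, most of the distance coming from AAV-mVEGF-C 1. *Ccl12*, a mouse homolog of human CCL2, was at 14.1 and 22.7 CPM against 10.4 and 18.5 CPM (−0.34, SE 0.36), with groups that overlapped. *Ccl8*, also a ligand of mouse CCR8, had 420 and 448 reads against 192 and 299 reads, or 11.2 ± 2.56 and 7.16 ± 3.20 CPM (SD, n = 2 pools each; −0.64, SE 0.39; fold 0.640, 95% interval 0.332 to 1.23). Its AAV-mVEGF-C 2 value, 9.43 CPM, was just above the 9.39 CPM of AAV-CTRL 1, so the groups met without separating. In each of these 4 ligands AAV-mVEGF-C 1 was the lowest library. The summed level of the 4 genes was 139 and 158 CPM against 107 and 142 CPM (exact permutation p = 0.667), and 194 and 240 TPM against 131 and 185 TPM (exact permutation p = 0.333), so the groups overlapped in CPM and not in TPM. The sign of the log2 fold change stayed negative under all 16 alternative settings for *Ccl2*, *Ccl7*, and *Ccl8*, and under 14 of them for *Ccl12*, which turned positive without AAV-CTRL 2 and without AAV-mVEGF-C 1.

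Marker genes of cells that can make these ligands varied among the same libraries. All 12 macrophage markers were lower after AAV-mVEGF-C (median log2 fold change −0.24; 0 with an unadjusted p under 0.05), and their summed level was 1738 and 2359 CPM in the controls and 1439 and 2046 CPM after AAV-mVEGF-C, lowest in AAV-mVEGF-C 1 as for the CCR2 ligands. All 10 fibroblast markers, which the CD45+ sort should remove, were lower as well (median −0.81; 5 with an unadjusted p under 0.05 in edgeR and 0 after adjustment), with a sum of 741 and 1258 CPM against 438 and 675 CPM. Of 8 mast cell markers, 7 were lower (median −0.59; 5 with an unadjusted p under 0.05 and 0 after adjustment in edgeR), with a sum of 2148 and 1514 CPM against 1243 and 1319 CPM, without overlap and lowest in AAV-mVEGF-C 1. The 9 monocyte markers did not share this direction, with 5 higher and 4 lower (median 0.02; 0 with an unadjusted p under 0.05), at a sum of 3717 and 2927 CPM against 3313 and 3576 CPM. None of the marker genes was at 0 in all libraries. Their part in the values of the CCR2 ligands was not tested. In sorted bulk cells, fewer cells of a type and less RNA of a gene per cell cannot be told apart.

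The macrophage inflammatory proteins and their relatives, which act on CCR1 among other receptors, were the most abundant group of the ligands kept here. *Ccl6* and *Ccl9* are mouse ligands of CCR1 made by myeloid cells. *Ccl6* was at 253 and 138 CPM in the controls and 211 and 214 CPM after AAV-mVEGF-C (fitted log2 fold change 0.12, SE 0.29). *Ccl9* was at 164 and 85.3 CPM against 127 and 118 CPM (−0.03, SE 0.31). For both genes the AAV-mVEGF-C libraries lay close together between the controls, which differed 1.83-fold for *Ccl6* and 1.93-fold for *Ccl9*. *Ccl5*, or RANTES, a product of activated T cells and NK cells, was at 44.8 and 58.8 CPM against 47.4 and 57.8 CPM (0.02, SE 0.21), also between the controls. *Ccl4* was at 36.5 and 60.7 CPM against 40.7 and 67.2 CPM (0.15, SE 0.33). *Ccl3*, its neighbor on chromosome 11 (83647844 to 83649355, minus strand, beside *Ccl4* at 83662584 to 83664683, plus strand), was at 17.4 and 38.1 CPM against 30.3 and 44.8 CPM (0.44, SE 0.39). In both of these genes replicate 1 was the lower library of each group and the groups overlapped. *Ccl3* passed the test when AAV-CTRL 2 was left out, where its log2 fold change was 1.12 (adjusted p = 0.0121 from edgeR), a fit in which the lone control is taken to vary like the other group. That fit called 4 of its 42 tested chemokine genes, against 2058 of all 22401 genes tested in it (9.19%). Without AAV-CTRL 1 the log2 fold change of *Ccl3* was −0.04.

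The ligands of CCR4, *Ccl22* and *Ccl17*, are dendritic cell products that attract regulatory and type 2 helper T cells, and both lie on chromosome 8. *Ccl22* was at 61.9 and 36.8 CPM in the controls and 60.4 and 55.5 CPM after AAV-mVEGF-C (fitted log2 fold change 0.23, SE 0.26). *Ccl17* was at 10.8 and 5.75 CPM against 9.50 and 7.72 CPM (0.06, SE 0.37). Here too AAV-CTRL 1 was the highest library and AAV-CTRL 2 the lowest, with both AAV-mVEGF-C libraries between them. Of the 9 dendritic cell markers, 8 had a positive log2 fold change (median 0.23; 0 at an unadjusted p under 0.05), with sums of 420 and 479 CPM against 492 and 519 CPM.

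Among the ligands of CXCR2, which attract neutrophils, the abundant and the rare gene differed in their values. *Cxcl2* was at 183 and 126 CPM in the controls and 161 and 190 CPM after AAV-mVEGF-C (fitted log2 fold change 0.19, SE 0.22; fold 1.14, 95% interval 0.783 to 1.65), and its groups overlapped. *Cxcl1* was at 8.83 and 5.75 CPM against 4.70 and 8.16 CPM (−0.18, SE 0.40), also with overlap. *Cxcl3* had 27 and 24 reads in AAV-CTRL and 80 and 51 reads in AAV-mVEGF-C, or 0.604 and 0.697 CPM against 2.04 and 1.61 CPM. Both AAV-mVEGF-C libraries lay above both controls (log2 fold change 1.49, SE 0.64; fold 2.80, 95% interval 0.948 to 8.29; unadjusted p = 0.059 and adjusted p = 0.999 from edgeR). *Cxcl3* is close to *Cxcl2* in sequence. The deposited counts of both genes had decimals in all 4 libraries while their sums were whole (within 0.011), which shows reads divided between them, and the reads of *Cxcl2* outnumbered those of *Cxcl3* in every library. The count of *Cxcl3* is therefore uncertain. In TPM it was at 0.135 and 0.555 in the controls and 1.14 and 1.23 after AAV-mVEGF-C. The TPM that 1 read of *Cxcl3* was worth, set against the median gene of the same library, differed up to 3.54-fold between libraries, so the 2 scales do not give the same ratio. *Cxcl5* (0 and 1 reads against 1 and 2) and *Cxcl15* (0 and 0 reads against 9 and 1) were too low to be tested. The 12 neutrophil markers, whose cells carry CXCR2, summed to 29640 and 13240 CPM in the controls and 17540 and 19290 CPM after AAV-mVEGF-C, the controls again lying on either side.

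The ligands of CXCR3, induced by interferon-γ, attract effector T cells and NK cells. *Cxcl9* was at 28.1 and 18.2 CPM in the controls and 22.7 and 27.0 CPM after AAV-mVEGF-C (fitted log2 fold change 0.10, SE 0.26), and its AAV-mVEGF-C libraries lay between the controls. *Cxcl10* was at 16.2 and 24.7 CPM against 20.1 and 36.4 CPM (0.47, SE 0.35), with overlap. *Cxcl11*, which GENCODE M21 lists as a polymorphic pseudogene rather than as protein coding, had 2 and 16 reads against 42 and 29 reads (1.97, SE 1.30; fold 3.92, 95% interval 0.436 to 35.2). Both AAV-mVEGF-C libraries of *Cxcl11* lay above both controls, although the controls themselves differed more than the groups did. Without AAV-CTRL 2, which leaves the 2 reads of AAV-CTRL 1 as the only control, its log2 fold change was 4.39. Without AAV-CTRL 1 it was 1.07. The 3 genes are neighbors on chromosome 5, minus strand, from 92321347 to 92365485, and *Cxcl10* and *Cxcl11* overlap *Art3* on the opposite strand. The kit was stranded, but whether counting used the strand is not given in the sources used here. Of 16 interferon response genes, 6 had a positive and 10 a negative log2 fold change (median −0.06; 0 at an unadjusted p under 0.05).

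The remaining ligands were of low or even level. *Cxcl16* and *Cx3cl1* are anchored in the membrane, where they serve adhesion as well as migration. *Cxcl16*, the ligand of CXCR6, was at 120 and 139 CPM in the controls and 124 and 164 CPM after AAV-mVEGF-C (fitted log2 fold change 0.16, SE 0.20). *Cx3cl1*, or fractalkine, was at 8.63 and 7.99 CPM against 7.10 and 8.35 CPM (−0.10, SE 0.27). Both overlapped between the groups. *Ccl1*, the ligand of CCR8, was at 15.3 and 18.8 CPM against 12.8 and 19.3 CPM (−0.09, SE 0.27). *Xcl1*, made by NK cells and CD8 T cells for the XCR1+ dendritic cells, was at 2.46 and 6.56 CPM against 3.06 and 5.26 CPM (−0.11, SE 0.56), between controls that differed 2.67-fold. Its log2 fold change was −0.67 without AAV-CTRL 1 and 0.77 without AAV-CTRL 2. It was 0.24 without AAV-mVEGF-C 1 and −0.54 without AAV-mVEGF-C 2.

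*Ccl24*, or eotaxin-2, a ligand of CCR3, was at 2.75 and 6.01 CPM against 3.88 and 2.99 CPM (−0.34, SE 0.48), within the range of the controls. In TPM it was at 5.09 and 6.52 against 2.37 and 3.29, without overlap, and the TPM that a read of *Ccl24* was worth differed up to 2.85-fold between libraries, set against the median gene of each. Its log2 fold change was −0.82 without AAV-CTRL 1 and 0.33 without AAV-CTRL 2, and −0.53 and −0.16 without AAV-mVEGF-C 1 and 2 (adjusted p from 0.537 to 1 in edgeR). *Cxcl14* was at 1.65 and 2.38 CPM against 1.38 and 1.55 CPM (−0.46, SE 0.53), with both AAV-mVEGF-C libraries below both controls at 49 to 82 reads per library. *Ccl27a* had 17 and 30 reads against 37 and 30, and *Ccl21a* had 18 and 6 reads against 11 and 12. *Ccl21a* has near-identical copies, *Ccl21b* and *Ccl21d*, and reads could be divided among them. *Ccl21d* had 10 and 11 reads in AAV-CTRL and 4 and 0 in AAV-mVEGF-C, and *Ccl21b* had 11 and 0 against 0 and 7. These counts were too low to be tested, as were *Ccl11* (0 and 0 reads against 3 and 2) and *Ccl20*, a ligand of CCR6 (0 and 3 reads against 11 and 7). *Ccl26*, *Ccl27b*, and *Cxcl17* had 0 reads in all 4 libraries.

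Among the receptors of T cells and innate lymphocytes, *Ccr8* had the lowest p of all tested chemokine genes. CCR8 marks tissue regulatory T cells and type 2 helper cells. *Ccr8* (chromosome 9, 120092114 to 120094906, plus strand) was at 15.7 and 23.1 CPM in the controls and 26.8 and 30.6 CPM after AAV-mVEGF-C, or 19.4 ± 5.25 and 28.7 ± 2.66 CPM (SD, n = 2 pools each). Both AAV-mVEGF-C libraries lay above both controls (log2 fold change 0.56, SE 0.24; fold 1.48, 95% interval 0.982 to 2.23; unadjusted p = 0.058 and adjusted p = 0.999 from edgeR). Without AAV-CTRL 2, the fit that called 9.19% of all genes, the log2 fold change was 0.88 (adjusted p = 0.0196 from edgeR). Without AAV-CTRL 1 it was 0.29 (adjusted p = 0.995). On the TPM scale it was at 10.7 and 16.8 TPM against 16.9 and 19.3 TPM, so that AAV-mVEGF-C 1 was only just above AAV-CTRL 2. *Ccr4*, the receptor of *Ccl17* and *Ccl22*, was at 5.68 and 5.55 CPM against 10.5 and 5.86 CPM (0.55, SE 0.37), without overlap, although AAV-mVEGF-C 2 was only just above the controls. *Ccr6* was at 5.70 and 4.99 CPM against 8.78 and 4.60 CPM (0.33, SE 0.40), and AAV-mVEGF-C 2 was its lowest library.

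The receptors of effector T cells had nearly equal means. *Cxcr6*, which retains lymphocytes in tissues, was at 77.7 and 99.4 CPM in the controls and 83.7 and 92.9 CPM after AAV-mVEGF-C (fitted log2 fold change 0.00, SE 0.18; fold 0.998, 95% interval 0.736 to 1.35). *Cxcr3* was at 15.9 and 23.8 CPM against 17.6 and 22.2 CPM (0.01, SE 0.26). In both genes AAV-CTRL 1 was the lowest and AAV-CTRL 2 the highest library. Of the 10 T cell markers, 8 had a positive log2 fold change (median 0.23; *Cd5* and *Cd3g* had an unadjusted p under 0.05 in edgeR and none passed after adjustment). Their sum was 358 and 314 CPM in the controls and 410 and 387 CPM after AAV-mVEGF-C, without overlap, as for *Ccr8* and *Ccr4*. Their part in the values of these receptors was not tested.

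**Figure D3:**
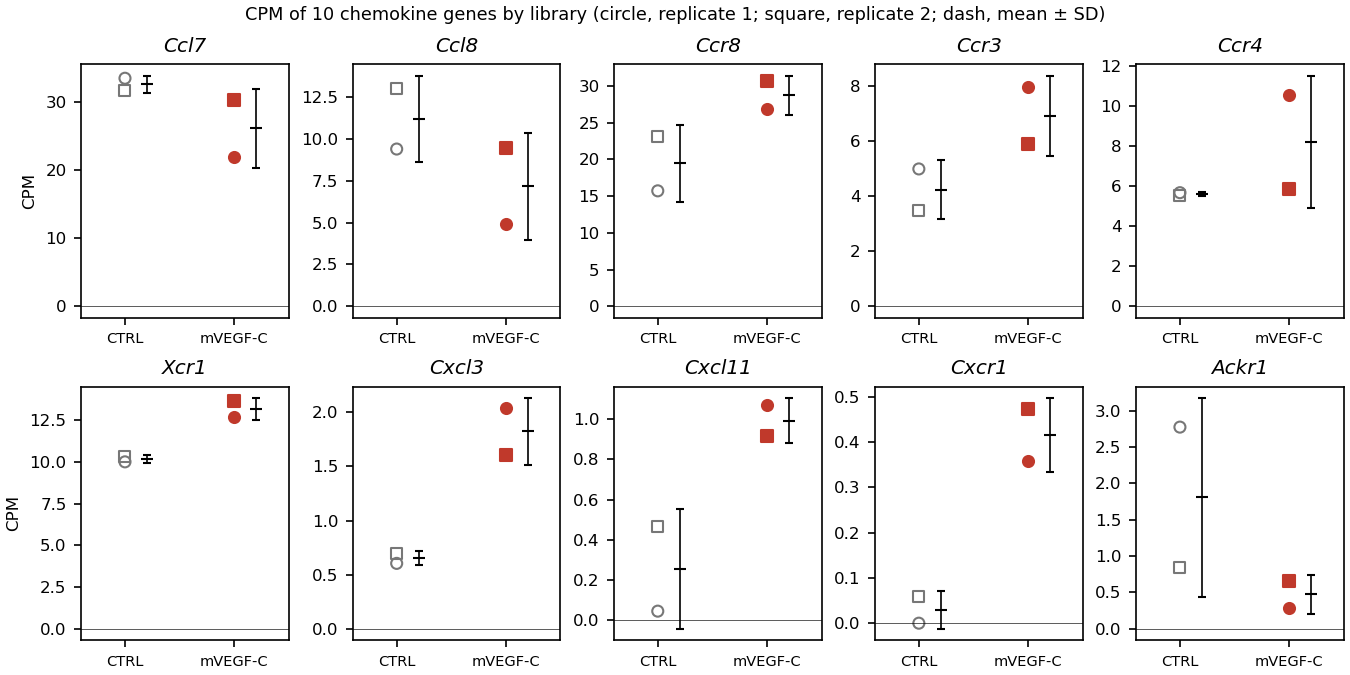
CPM of 10 chemokine genes in each library, on linear axes; open symbols are AAV-CTRL, filled symbols AAV-mVEGF-C, circles replicate 1, squares replicate 2, and dashes with bars are the mean ± SD of the 2 pools. The genes were picked for display after their values were seen: the groups do not overlap in CPM except for *Ccl8*, where AAV-mVEGF-C 2 at 9.43 CPM lies just above AAV-CTRL 1 at 9.39 CPM.

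Among the myeloid receptors, *Ccr2*, the receptor that brings monocytes out of the bone marrow and into tissues, was the highest. It was at 360 and 336 CPM in the controls and 321 and 336 CPM after AAV-mVEGF-C (fitted log2 fold change −0.08, SE 0.15; fold 0.945, 95% interval 0.728 to 1.23). Both AAV-mVEGF-C libraries lay below both controls, AAV-mVEGF-C 2 only just. *Cx3cr1*, of monocytes and macrophages, was at 119 and 216 CPM against 128 and 181 CPM (−0.11, SE 0.32), between controls in which AAV-CTRL 2 was higher. Its gene model in GENCODE M21 overlaps *Gorasp1*, *Csrnp1*, and *Xirp1* on the same strand, so reads of these genes could be mixed. *Ccr1* was at 88.9 and 48.8 CPM against 73.3 and 77.5 CPM (0.13, SE 0.29), and *Cxcr2*, the receptor of neutrophils, was at 91.5 and 54.2 CPM against 88.2 and 86.1 CPM (0.26, SE 0.26). For these genes too the AAV-mVEGF-C libraries lay between the controls, but with AAV-CTRL 1 the higher. *Xcr1*, which marks the dendritic cells that cross-present antigen, was at 10.0 and 10.3 CPM against 12.7 and 13.7 CPM (0.37, SE 0.23; fold 1.30, 95% interval 0.886 to 1.90), with groups that did not overlap and little spread within either.

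The receptors of granulocytes other than *Cxcr2* were low. *Ccr3*, of eosinophils and basophils, was at 4.99 and 3.48 CPM in the controls and 7.94 and 5.89 CPM after AAV-mVEGF-C, without overlap (fold 1.63, 95% interval 0.891 to 2.99; unadjusted p = 0.0949 and adjusted p = 0.999 from edgeR). The 9 eosinophil and basophil markers summed to 442 and 137 CPM against 352 and 312 CPM, so unlike for *Ccr3* the AAV-mVEGF-C libraries lay between the controls. *Cxcr1* had 0 and 2 reads in AAV-CTRL and 14 and 15 reads in AAV-mVEGF-C. *Cxcr1* passed the expression filter through its AAV-mVEGF-C reads alone, the only one of the 40 tested genes to do so, so its reads are a description. Without it, the groups were apart with AAV-mVEGF-C higher for 7 of the other 39 genes, and the median log2 fold change of the receptors was 0.12.

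The atypical receptors were near the limit of detection. *Ackr1*, the chemokine transporter of venules and red cells, had 124 and 29 reads in AAV-CTRL and 11 and 21 reads in AAV-mVEGF-C, or 2.77 and 0.842 CPM against 0.281 and 0.662 CPM. Both AAV-mVEGF-C libraries lay below both controls (log2 fold change −1.94, SE 0.91; fold 0.260, 95% interval 0.0562 to 1.21; unadjusted p = 0.0755 and adjusted p = 0.999 from edgeR), and the controls differed 3.29-fold. Without AAV-CTRL 2 the log2 fold change was −2.55, a value that rests on AAV-CTRL 1 as the only control. Without AAV-CTRL 1 it was −0.86. *Ackr1* lies inside the gene model of *Cadm3* on the same strand, so reads of the 2 genes could be mixed. All 8 markers of blood endothelium, which CD45+ sorting should exclude, had a negative log2 fold change (median −0.57; 1, *Kdr*, with an unadjusted p under 0.05 and 0 after adjustment in edgeR). Their sum was 42.7 and 70.3 CPM in the controls and 38.5 and 36.4 CPM after AAV-mVEGF-C, highest in AAV-CTRL 2, whereas *Ackr1* was highest in AAV-CTRL 1. Their part in the value of *Ackr1* was not tested. *Ackr3*, a scavenger of CXCL12, had 1 and 44 reads against 24 and 25 (0.12, SE 1.55). Over 15 alternative settings its log2 fold change ran from −0.88 to 4.79. *Ackr2* had 0 and 8 reads against 22 and 2, and *Ackr4* had 0 and 4 reads against 6 and 4, and neither was tested.

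The 2 control pools often lay further apart than the group means did, at about the rate seen over all tested genes. A fold between 2 single pools varies more than a ratio of means of 2 pools. A high count can therefore arise without any difference between the groups. The controls differed by more than the ratio of the group means for 30 of the 40 tested chemokine genes, against 73.3% of all tested genes. The median fold between the controls was 1.54 over the chemokine genes and that between the AAV-mVEGF-C libraries was 1.26, against 1.40 and 1.19 over all tested genes. For 16 of the 40 chemokine genes both AAV-mVEGF-C libraries lay between the controls, against 25.6% of all genes. More than 1.5-fold apart were the controls of 23 of the 40 genes, against 43.5% of all tested genes, and the AAV-mVEGF-C libraries of 10, against 4750 of all 19806. AAV-CTRL 1 was the higher control for 10 of the 23, among them *Ccl6*, *Ccl9*, *Ccr1*, *Cxcr2*, *Ccl17*, and *Ccl22*, and AAV-CTRL 2 was the higher control for 13, among them *Ccl3*, *Ccl4*, *Ccl12*, *Cxcl10*, and *Cx3cr1*. Over all tested genes, AAV-CTRL 1 was higher by more than 1.5-fold for 2846 and AAV-CTRL 2 for 5765. The marker sums of the controls also differed in both directions, with AAV-CTRL 1 higher in 6 and AAV-CTRL 2 in 7 of the 13 cell type lists. Neutrophil markers summed to 29640 CPM in AAV-CTRL 1 and 13240 CPM in AAV-CTRL 2, those of eosinophils and basophils to 442 and 137 CPM, and those of mast cells to 2148 and 1514 CPM. Markers of macrophages summed to 1738 and 2359 CPM, those of B cells to 274 and 664 CPM, and those of fibroblasts to 741 and 1258 CPM. Their part in the chemokine values was not tested.

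**Figure D4:**
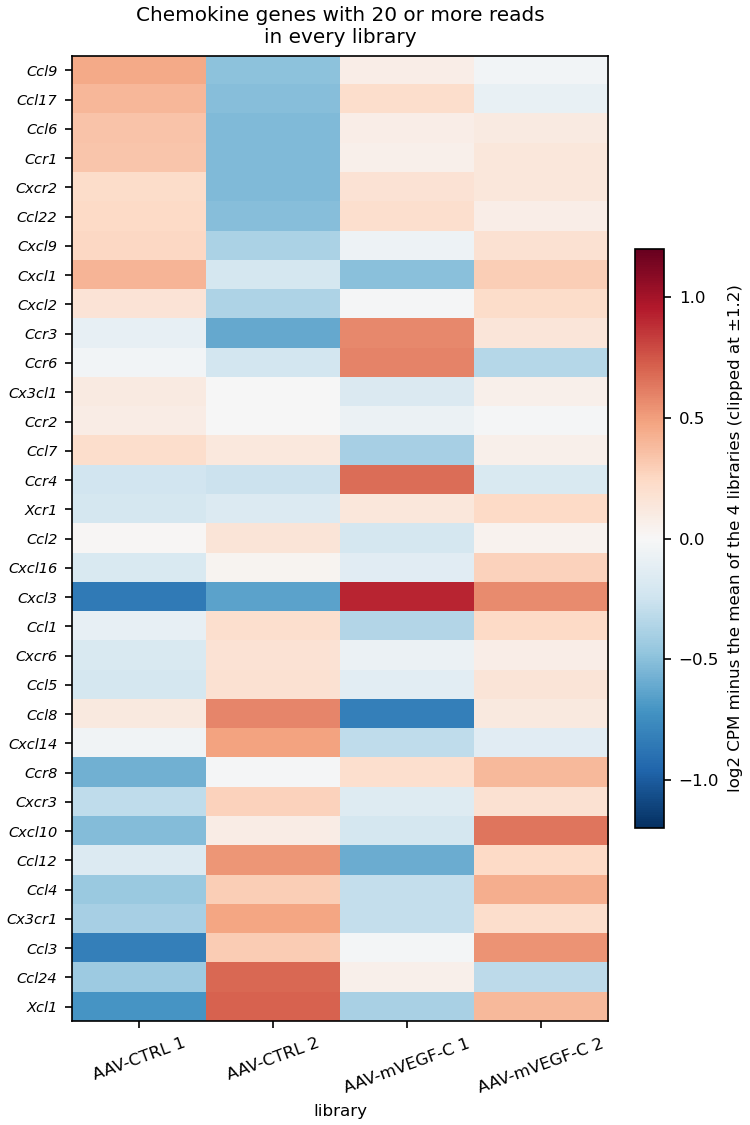
Log2 CPM of 33 chemokine genes with at least 20 reads in every library, each minus its mean over the 4 libraries; rows are ordered by the difference between the controls, and red is higher and blue lower. This order itself makes the 2 control columns run in opposite directions from top to bottom. *Cxcl3* is the row in which both columns of each group share a strong color.

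Other genes that act with chemokines gave no call either. Of 16 genes of related attractants and receptors outside the naming pattern, 8 were higher and 8 lower (median 0.03), and 0 passed after adjustment in edgeR. The single one with an unadjusted p under 0.05 was *Gpr35*, a receptor proposed to bind CXCL17, at 30.5 and 37.8 CPM in the controls and 50.5 and 53.5 CPM after AAV-mVEGF-C (fitted log2 fold change 0.61, SE 0.18; unadjusted p = 0.0148 and adjusted p = 0.999 from edgeR). Its groups did not overlap. Of 32 genes that carry the signal of chemokine receptors, such as the G protein subunit *Gnai2* and the Rac activator *Dock2*, 16 were higher and 16 lower (median 0.01; 0 at an unadjusted p under 0.05). *Gnai2* was at 1053 and 804 CPM against 775 and 937 CPM, and *Dock2* was at 773 and 745 CPM against 794 and 801 CPM. The groups overlapped for *Gnai2* and not for *Dock2*, where they differed by 0.07 on the log2 scale. Of 21 genes of the NF-κB response, 20 had a positive log2 fold change, against 9983 of all 19806 genes, up to 0.50 for *Il6* (median 0.18; 0 at an unadjusted p under 0.05). Their sum was 5689 and 5793 CPM in the controls and 5997 and 7340 CPM after AAV-mVEGF-C, without overlap. *Tnfaip3*, the feedback inhibitor of NF-κB, was at 1458 and 1457 CPM against 1675 and 1933 CPM (0.31, SE 0.17). The 16 immediate early and heat shock genes, which tissue dissociation is known to induce, had a positive log2 fold change in 14 cases (median 0.13; 0 at an unadjusted p under 0.05), at a sum of 12190 and 15530 CPM against 13250 and 17020 CPM. Their part in the values of the NF-κB genes and chemokines was not tested.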

How the data were processed

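RNA of sorted dural CD45+ cells was sequenced as 2 libraries for each of AAV-CTRL and AAV-mVEGF-C. The authors deposited estimated counts per gene without normalization (8.18% of the values were not whole), which were rounded here, and TPM values, which the authors had scaled to transcript length and library. The submitters' processing notes name FastQC, Trimmomatic, DRAGEN, and Picard and the mm10 build. The counting program and annotation are not given in the sources used here. Dura had been digested with enzymes for 20 min before sorting. Fragments were amplified by PCR, so reads are not independent molecules.

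Groups were compared with the quasi-likelihood test of edgeR 4.0.16 (R 4.3.3; glmQLFit and filterByExpr at their defaults, TMM, 4 libraries, no covariate) and Benjamini-Hochberg adjustment over the 19806 tested genes at 0.05. SEs are the log2 fold change over the square root of F. Alternatives were DESeq2 1.42.0 (the authors' tool) on the same genes, limma-voom, limma 3.58.1 on log2 TPM with a pseudocount of 1 or 0.1, other scalings and filters, robust fitting, a replicate block, and fits that each omitted a library. A crossed block and glmQLFit with legacy = FALSE were chosen after seeing the data.

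Values per library were required for the 2 members of each role with the highest mean TPM, for members with an unadjusted p under 0.05, and for members whose groups do not overlap, with a log2 fold change of at least 1 and at least 10 reads in each higher library. The other members named, such as *Ccl8*, *Ccr3*, *Ccr4*, and *Xcr1*, were described after their values were seen. The members, roles, gene lists, and marker lists were chosen with earlier results of these data known. Values of 1 receptor, counted in the totals, are not reported here. Coordinates are those of GENCODE M21, which holds 48 of the 51 versioned identifiers. The labels number the libraries by experiment, 1 and 2 in each group, while the column names of the table number them 2 and 3 in AAV-CTRL and 1 and 2 in AAV-mVEGF-C, so which pools were handled together is not settled. The correlation of deviations from the group means was −0.134 on edgeR's log2 CPM and −0.0357 on log2(CPM + 1) for pools with the same experiment number. With 2 pools per group the crossed pairing has the same values with the opposite sign, 0.134 and 0.0357.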

Additional observations from a re-analysis of the deposited data

How the results depend on the processing

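No chemokine gene had an adjusted p under 0.05 in any alternative that kept all 4 libraries. With a library left out, 0 to 4 did, the 4 being *Ccl3*, *Ccr8*, *Ackr1*, and *Cxcl11* without AAV-CTRL 2, of 42 tested there against 9.19% of all genes, and in each of these fits the lone library is taken to vary like the other group. Over all genes the count was 0 in edgeR (523 with an unadjusted p under 0.05), 72 in DESeq2, 268 with no filter, and 2 to 2058 with a library left out (412 without AAV-CTRL 1, 2058 without AAV-CTRL 2, 2 without AAV-mVEGF-C 1, and 65 without AAV-mVEGF-C 2). The cause was not tested.

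With the experiment number of the labels as a replicate block, 11 genes and 0 chemokine genes passed, at a median log2 fold change of 0.12 for ligands and 0.26 for receptors. With the numbers crossed, as the column labels of the table would pair AAV-CTRL 1 with AAV-mVEGF-C 2, 54 genes and 0 chemokine genes passed. The block changed no call of a chemokine gene. Of the 382 values of the 24 members chosen by the rule, 338 kept their direction and their side of the threshold, 3 passed it, and 41, in 15 members, changed sign without a call on either side. The difference in summed level ran from −29.5 to 147 CPM for ligands and from −35.1 to 53.5 CPM for receptors with a library left out. With 2 pools per group these libraries left intervals of several fold for genes with few reads, such as *Cxcl3*, *Cxcl11*, *Cxcr1*, and *Ackr1*, and genes under the expression filter were not tested.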
